A study of Mus musculus with 24 samples.

Results

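The lysosome was followed through the RNA of 38 of its genes, which code for digestive enzymes, their activators, proteins of the lysosomal membrane and 2 transcription factors that act on such genes. They were taken from the deposited count table by gene symbol, and all 38 were found among its 39396 genes. RNA came from the left ventricle of mice of 4 groups with 6 libraries each: control and DKO, each labelled day 1 or day 7 of age. DKO stands for loss of both Rhot1 and Rhot2, induced in cardiomyocytes during embryonic life. These genes code for RHOT (Miro) proteins, which anchor mitochondria to the motors that move them. The sources used here do not give the strain, the alleles of the controls or the promoter used for the deletion. The labels name cardiomyocytes as the source, but the protocol describes RNA of whole ventricular tissue, which also holds fibroblasts, vessels and macrophages.

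Lysosomes are acidic organelles that break down proteins, glycogen, glycolipids and the contents of autophagosomes. Their hydrolases are made in the endoplasmic reticulum, carried mostly by mannose 6-phosphate receptors, and work at the low pH kept by a vacuolar proton pump. TFEB and TFE3 are transcription factors that bind an E-box in many lysosomal genes, and they are held in the cytosol when the kinase mTORC1 is active on the lysosomal surface. In the heart, inherited loss of GAA or of LAMP2 causes storage disease with cardiomyopathy.

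Total counts per library ran from 30318018 to 45806171 at labelled day 1 and from 17334498 to 30453874 at labelled day 7, and the lowest count of any of the 38 genes in any library was 50. Rhot1 was at 158 ± 16.6 CPM (SD, n = 6; CPM is the count scaled to the library size after TMM, the trimmed mean of M values) in controls labelled day 1 and at 119 ± 9.89 CPM in the matching DKO libraries, a log2 fold change of −0.42 ± 0.08 (SE, edgeR adjusted p = 0.0011). Its log2 fold change at labelled day 7 was −0.25 ± 0.06 (adjusted p = 0.087). No level of Rhot2 is available for any group, controls included, so its loss in DKO cannot be read here. Cardiomyocyte markers summed to between 51871 and 67946 CPM in the 24 libraries, so the labelled cell type was present in each. The labels of age are used as given. The libraries labelled day 7 nevertheless had more of the fetal myosin gene Myh7 (log2 difference 2.28 in controls) and less of Tnni3, the adult troponin I (−0.74), the opposite of their known order after birth. Each of the 12 libraries labelled day 1 held Y-linked transcripts (over 10 CPM of Eif2s3y), as did 4 of the 12 labelled day 7, 2 per genotype. The atrial gene Myl7 exceeded 50 CPM in 4 of the 6 controls labelled day 1 and 500 CPM in 2 of the 6 DKO libraries labelled day 7, m1124 and m1128. Results that depend on these libraries are given with and without them. Nothing in the labels says that each library came from another animal. The p-values refer to the spread among libraries, part of which may be technical.

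At labelled day 1, DKO hearts had more RNA of 10 of the 38 lysosomal genes and less of 2, and 26 did not pass the test. The risen genes were the proteases Ctsa, Ctsd and Ctsl, the glycosidases Gaa, Hexa, Man2b1 and Neu1, the cholesterol carrier Npc2, the progranulin gene Grn and the membrane gene Cd63. Npc1, a cholesterol transporter, and Tfeb fell. At labelled day 7 only Ctsc, a dipeptidyl peptidase, and Cd63 passed with edgeR, both higher in DKO, and 36 did not pass. Cd63 passed at both labelled ages, and 25 genes passed at neither. Changes were small: over the 38 genes the log2 fold changes ran from −0.31 to 0.70 at labelled day 1 and from −0.17 to 0.70 at labelled day 7.

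The rises at labelled day 1 were 26.3% of the 38 genes, against 9.81% of all 17352 genes tested (1702 genes) and 6.11% of the 14417 protein-coding genes tested (881 genes). The falls were 5.26% of the 38, below the share of all genes, 7.79% (1351 genes), and of protein-coding genes, 8.27% (1193 genes). The 2 rises at labelled day 7 were 5.26% of the 38, against 0.686% of all genes (119 genes). No lysosomal gene fell there with edgeR, with 0 also at an unadjusted p under 0.05 and 0 with DESeq2 or limma-voom, and 0.334% of all genes did (58 genes). The median log2 fold change of the 38 genes was 0.07 at labelled day 1 and 0.09 at labelled day 7, where the medians of all genes were −0.02 and −0.01. Values were positive for 27 and 29 of the 38 genes.

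Together the 38 genes took 0.439 to 0.471% of all counts in controls and 0.484 to 0.541% in DKO at labelled day 1. They took 0.407 to 0.445% in controls and 0.457 to 0.485% in DKO at labelled day 7. The groups did not overlap at either labelled age. The mean summed level was 1.12 times as high in DKO at labelled day 1 and 1.099 times as high at labelled day 7. By role, the sum of the proteases was 1.20 and 1.13 times as high, that of the other hydrolases 1.07 and 1.05 times, that of activators and transfer proteins 1.12 and 1.05 times, that of membrane proteins 1.03 and 1.14 times, and that of the 2 transcription factors 0.951 and 1.01 times. These sums rest mainly on 4 abundant genes, Psap, Ctsb, Laptm4a and Ctsd, which made up 54.9% of the summed CPM in controls labelled day 1. In ventricular tissue, a change in the share of a cell type and a change of RNA per cell cannot be told apart.

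**Figure D1:**
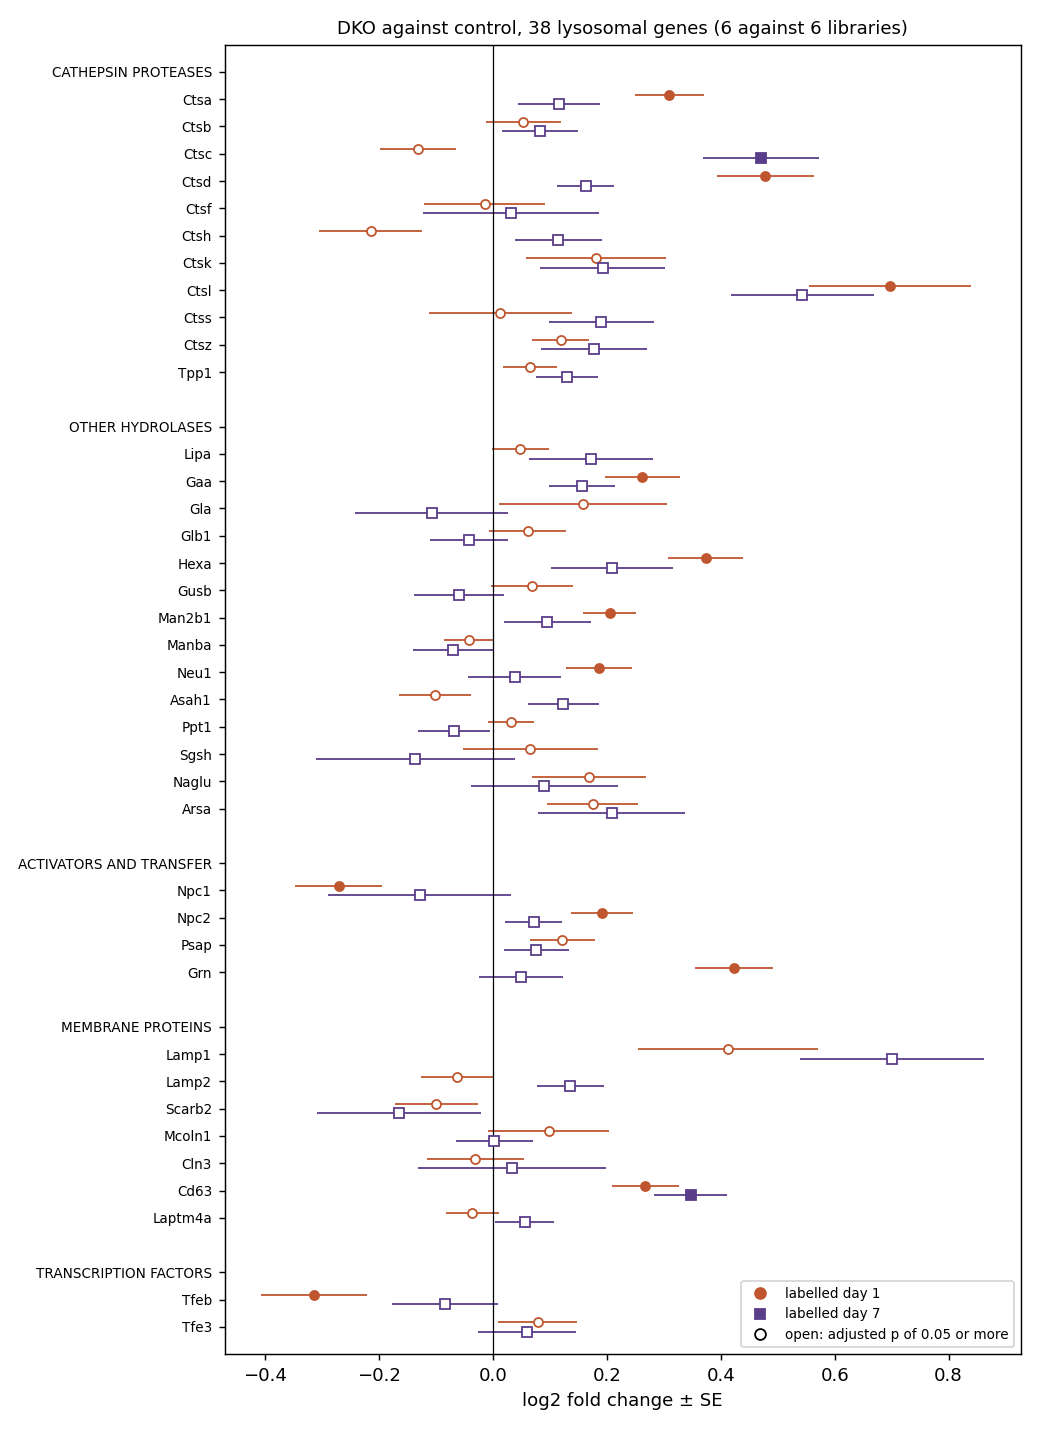
Log2 fold change (DKO against control, ± SE) of the 38 lysosomal genes, grouped by role, at labelled day 1 (circles) and labelled day 7 (squares), 6 against 6 libraries each. Filled marks had an edgeR adjusted p under 0.05: 10 to the right and 2 to the left of zero at labelled day 1, and Ctsc and Cd63 at labelled day 7.

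Levels per length of transcript differed widely between the genes. Per kilobase of exonic sequence (GENCODE M21, GRCm38), controls labelled day 1 had the highest mean levels for Psap (316 CPM per kilobase), the precursor of the saposins that present lipids to their enzymes, Laptm4a (307), a small membrane protein, Ctsd (227), an aspartic protease, and Ctsb (102), a cysteine protease. The lowest were Gla (0.782), alpha-galactosidase, Sgsh (0.929), a sulfatase of heparan sulfate, and Cln3 (1.82), a membrane protein lost in a childhood storage disease. In DKO labelled day 1 Ctsd stood at 317 CPM per kilobase, above Laptm4a at 301. The libraries were made without strand information, and 64.5% of the exonic bases of Lamp1 lie inside Grtp1 on the opposite strand. For Ctsd 63.7% lie inside another annotated gene on the same strand. The share inside other annotated genes is 44.2% for Sgsh, 39% for Ctsa and 30.4% for Ctsl. Counts of these genes may cover part of each transcript or include the neighbour. Differences between groups may then include a change of the neighbour, which was not tested.

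Since TFEB acts through an E-box, promoters were searched for its letters. Of the 38 genes, 34 had a promoter in the RefSeq table (GRCm38.p6, 250 bases before to 50 after the start). The E-box CACGTG, which reads the same on both strands, was present in the promoters of 13 of these 34 genes (38.2%) and of 8.09% of the 27025 genes with a promoter. The longer core TCACGTGA, which contains the E-box and also reads the same on both strands, was present in 5 of the 34 (14.7%), namely Cln3, Ctsa, Ctsd, Gla and Mcoln1, and in 1.12% of all genes. Of the 10 genes that rose at labelled day 1, 4 held the E-box (Ctsa, Ctsd, Ctsl and Gaa), or 40.0%, against 9 of the other 24 (37.5%). The core was in 2 of the 10 and in 3 of the other 24. A match describes the letters only and is no evidence of binding. The following stretches end at or before the annotated start. They show the 4 genes with an E-box that rose, and then Mcoln1 and Lamp1, which hold it and did not pass the test at labelled day 1. Capitals mark each TCACGTGA or CACGTG, and each stretch is read on the gene's own strand.
Ctsa (chr2:164833724-164833772, plus strand): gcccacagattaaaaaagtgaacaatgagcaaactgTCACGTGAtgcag
Ctsd (chr7:142387883-142388077, minus strand): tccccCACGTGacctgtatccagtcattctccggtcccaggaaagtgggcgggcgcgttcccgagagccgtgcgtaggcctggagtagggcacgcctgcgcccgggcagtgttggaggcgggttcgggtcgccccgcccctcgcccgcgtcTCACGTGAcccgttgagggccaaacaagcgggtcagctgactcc
Ctsl (chr13:64370715-64370770, minus strand): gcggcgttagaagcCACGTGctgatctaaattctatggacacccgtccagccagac
Gaa (chr11:119267787-119267864, plus strand): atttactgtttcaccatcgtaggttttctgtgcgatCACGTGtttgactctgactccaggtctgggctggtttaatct
Mcoln1 (chr8:3500412-3500516, plus strand): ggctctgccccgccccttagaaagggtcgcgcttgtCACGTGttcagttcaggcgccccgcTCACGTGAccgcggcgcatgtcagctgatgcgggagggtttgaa
Lamp1 (chr8:13159064-13159160, plus strand): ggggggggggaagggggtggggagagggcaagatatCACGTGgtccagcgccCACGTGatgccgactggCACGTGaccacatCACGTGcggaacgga
The core nearest to the start began 13 bases before it in Ctsa, 99 in Ctsd and 46 in Mcoln1. Lamp1 held 4 E-boxes within 61 bases of its start, the most of the 34 genes, and none of them was the longer core.

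Among the proteases, 3 of 11 (27.3%) rose at labelled day 1 and 0 fell with edgeR, DESeq2 or limma-voom, with 1 fall at an unadjusted p under 0.05. With edgeR 9.81% of all genes tested rose and 7.79% fell, a share at which 0 falls among 11 genes says little. Ctsd (ENSMUSG00000007891, chromosome 7), the main aspartic protease of lysosomes, was at 479, 522 and 610.0 CPM (lowest, median and highest of 6 libraries) in controls and at 614, 758 and 889 CPM in DKO labelled day 1. All 6 DKO libraries lay above all 6 controls, with a log2 fold change of 0.48 ± 0.08 (SE, n = 6, edgeR adjusted p = 0.00097). Its values at labelled day 7 were 430.4, 455 and 464 CPM in controls and 478, 509.6 and 546 CPM in DKO. These groups did not overlap either, yet the smaller log2 fold change of 0.16 ± 0.05 did not pass with edgeR (adjusted p = 0.16) and did with DESeq2 (0.17, adjusted p = 0.0062). Its genotype effect differed between the labelled ages by −0.31 ± 0.10, short of the threshold (adjusted p = 0.14).

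Ctsl (ENSMUSG00000021477, chromosome 13), a cysteine protease with a known role in turning over autophagic cargo in the heart, had the largest rise of the 38 genes at labelled day 1. It was at 67.5, 97.4 and 115 CPM in controls and 117, 159 and 172 CPM in DKO, a log2 fold change of 0.70 ± 0.14 (adjusted p = 0.0039). The lowest DKO library, 79, was just above the highest control, 14. The libraries labelled day 7 had 54.0, 77.0 and 93.4 CPM in controls and 85.1, 109 and 132 CPM in DKO, where the ranges overlapped through a single pair of libraries. The log2 fold change there, 0.54 ± 0.13, did not pass with edgeR (adjusted p = 0.058) and passed with DESeq2 (0.55) and with all 24 libraries in the fit (0.55).

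Ctsa (ENSMUSG00000017760, chromosome 2), a carboxypeptidase that also shields neuraminidase and beta-galactosidase in a complex, was at 133, 154 and 167 CPM in controls and 173, 189 and 204 CPM in DKO labelled day 1. The groups were apart, with a log2 fold change of 0.31 ± 0.06 (adjusted p = 0.0022). The ranges overlapped at labelled day 7, with 141, 163 and 179 CPM in controls, 163, 169 and 196 CPM in DKO and a log2 fold change of 0.12 ± 0.07 (adjusted p = 0.50). The partners of this complex were Neu1, which rose at labelled day 1, and Glb1, at 0.06 (adjusted p = 0.60).

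Ctsc (ENSMUSG00000030560, chromosome 7), which activates serine proteases of immune cells, was the exception among the 38 genes in differing between the labelled ages. At labelled day 1 it was at 33.6, 41.2 and 44.5 CPM in controls and 33.3, 37.6 and 39.8 CPM in DKO, overlapping ranges with a log2 fold change of −0.13 ± 0.07 (adjusted p = 0.20). At labelled day 7 it was at 27.5, 31.7 and 36.8 CPM in controls and 36.2, 43.5 and 53.1 CPM in DKO, a rise of 0.47 ± 0.10 on the log2 scale (adjusted p = 0.035), with the lowest DKO library, m1067, below the highest control, m1088. The effect of the genotype differed between the labelled ages by 0.61 ± 0.12 (log2, adjusted p = 0.014). Among the 38 genes 1 passed this test upward and 0 downward (4 and 2 at an unadjusted p under 0.05, with 1 downward by DESeq2), against 0.311% and 0.766% of all genes (54 and 133 genes). The highest levels of Ctsc at labelled day 7 were in m1124 (51.8 CPM) and m1128 (53.0 CPM), the DKO libraries with over 500 CPM of Myl7. These 2 were also the only DKO libraries labelled day 7 with Y-linked transcripts (66.3 and 69.4 CPM of Eif2s3y). They were the most alike of all replicate pairs (chi-square over its degrees of freedom, 5.69), and these traits cannot be told apart. The call of Ctsc was kept with a term for Y-linked transcripts. Without both libraries, an alternative added after seeing the data, the log2 fold change was 0.34 (adjusted p = 0.24) and the difference between labelled ages 0.47 (adjusted p = 0.070). The call at labelled day 7 also ended without any single library of m1022, m1064, m1066, m1091, m1101, m1092, m1124 and m1128, with values of 0.42 to 0.49.

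The 15 macrophage markers were set beside Ctsc. They summed to 102 to 130.4 CPM in controls and 117 to 167 CPM in DKO labelled day 7, and to 151 to 199 CPM in controls and 140.1 to 193 CPM in DKO labelled day 1. None of the 15 passed with edgeR at either labelled age. At an unadjusted p under 0.05 there were 0 at labelled day 1 and 6 higher at labelled day 7, where DESeq2 called 2 and limma-voom 0. The medians were −0.07 at labelled day 1 and 0.25 at labelled day 7, where all 15 were positive. Csf1r, Adgre1 and Cd68, a growth factor receptor and 2 surface or lysosomal proteins of macrophages, had log2 fold changes of 0.14, 0.31 and 0.39 there. Fibroblast markers such as Col1a1, Col1a2 and Col3a1 had 0 of 10 called by edgeR, DESeq2 or limma-voom at either labelled age, with medians of −0.10 at labelled day 1 and 0.22 at labelled day 7. At an unadjusted p under 0.05 edgeR had 3 lower at labelled day 1 and 1 higher at labelled day 7. The part of these cells in the levels of Ctsc was not tested.

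**Figure D2:**
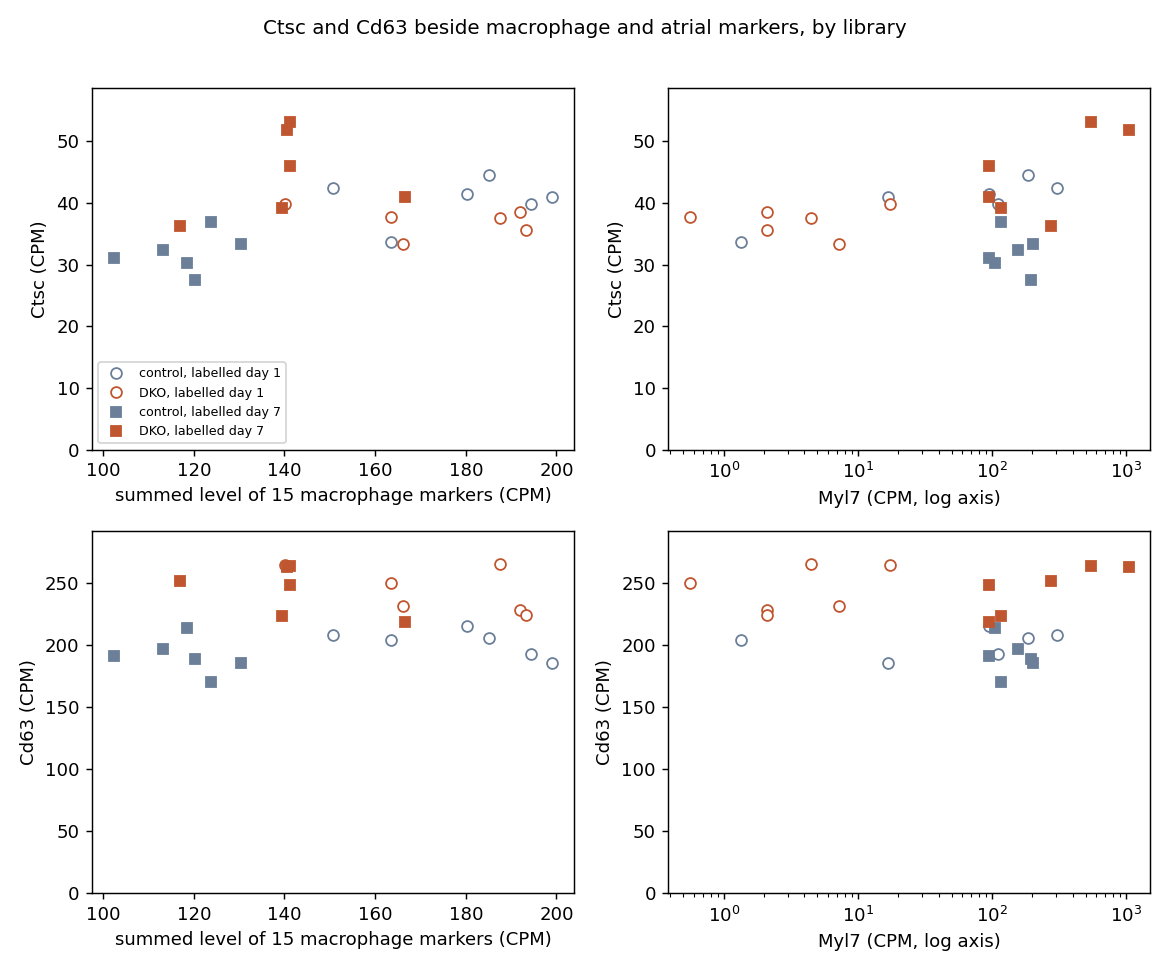
Level in CPM of Ctsc (top) and Cd63 (bottom) in each of the 24 libraries against the summed CPM of 15 macrophage markers (left) and the CPM of the atrial gene Myl7 (right, log axis). Open circles are libraries labelled day 1 and filled squares those labelled day 7, with controls in blue-grey and DKO in orange. The DKO libraries m1124 and m1128, rightmost in the Myl7 panels, have the highest Ctsc levels of all.

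The other 7 proteases did not pass at either labelled age with edgeR, DESeq2 or limma-voom. In other edgeR fits at labelled day 1, Ctsk and Ctsz passed upward with an atrial covariate, the mean log2 CPM of the atrial markers without Nppa. Ctsz also passed upward without control 13, and Ctsh passed downward without DKO 55. Ctsb was at 0.05 and 0.08 (log2 fold changes at labelled day 1 and day 7). Ctsh, an aminopeptidase, was at −0.21 and 0.11, and the bone-matrix protease Ctsk at 0.18 and 0.19. Ctss, a protease of antigen presentation, was at 0.01 and 0.19, Ctsz at 0.12 and 0.18, Ctsf at −0.01 and 0.03, and the tripeptidyl peptidase gene Tpp1 at 0.07 and 0.13. All 11 proteases were positive at labelled day 7, with a median of 0.16, and 8 of 11 were positive at labelled day 1, with a median of 0.07.

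Of the 14 hydrolases that act on sugars, lipids and sulfates, 4 (28.6%) rose and 0 fell at labelled day 1, against 9.81% and 7.79% of all genes tested. There were 0 falls also at an unadjusted p under 0.05. At labelled day 7 0 passed with edgeR, DESeq2 or limma-voom, and 1 was higher at an unadjusted p under 0.05 with edgeR. Hexa (ENSMUSG00000025232, chromosome 9), the alpha subunit of beta-hexosaminidase, which degrades GM2 ganglioside, was at 41.4, 43.0 and 47.3 CPM in controls and 47.2, 57.2 and 63.5 CPM in DKO labelled day 1. The lowest DKO library, 79, was just below the highest control, 13, and the log2 fold change was 0.37 ± 0.07 (adjusted p = 0.00099). Its ranges overlapped at labelled day 7 too, where it was at 32.9, 38.2 and 46.2 CPM and 39.9, 41.4 and 56.2 CPM, with 0.21 ± 0.11 (adjusted p = 0.40).

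Gaa (ENSMUSG00000025579, chromosome 11), the enzyme that degrades glycogen in lysosomes, was at 84.1, 94.4 and 101 CPM in controls and 98.9, 112 and 125 CPM in DKO labelled day 1. It rose by 0.26 ± 0.07 on the log2 scale (adjusted p = 0.011), with 1 DKO library inside the control range. Levels at labelled day 7 were 119, 129 and 137 CPM and 133, 144 and 159 CPM, a log2 fold change of 0.16 ± 0.06 (adjusted p = 0.24) with overlap. Without the 4 controls over 50 CPM of Myl7, which leaves 2 controls, the value at labelled day 1 was 0.21 and no longer passed (adjusted p = 0.13).

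Man2b1 (ENSMUSG00000005142, chromosome 8), a lysosomal alpha-mannosidase, was at 50.2, 53.1 and 57.9 CPM in controls and 59.9, 61.2 and 65.0 CPM in DKO labelled day 1. This was a narrow separation without overlap, with a log2 fold change of 0.21 ± 0.05 (adjusted p = 0.0061). Among libraries labelled day 7 it was at 48.0, 53.3 and 55.5 CPM and 51.5, 54.7 and 69.0 CPM (log2 fold change 0.10 ± 0.08, adjusted p = 0.62), and the highest DKO library, m1026, stood apart from the other 5. Neu1 (ENSMUSG00000007038, chromosome 17), the lysosomal sialidase, was at 23.2, 23.6 and 25.9 CPM and 25.4, 27.6 and 30.0 CPM at labelled day 1, overlapping ranges with a log2 fold change of 0.19 ± 0.06 (adjusted p = 0.037). That call ended without any of 8 of the 12 single libraries and without the filter on low counts. In controls and DKO labelled day 7 Neu1 was at 20.8, 25.8 and 27.5 CPM and 23.0, 26.6 and 28.1 CPM, a log2 fold change of 0.04 ± 0.08 (adjusted p = 0.88) that fell below zero without control m1091.

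The other 10 hydrolases of this group lay between −0.10 and 0.18 at labelled day 1 and between −0.14 and 0.21 at labelled day 7. The lipid enzymes were Lipa, acid lipase (0.05 and 0.17), Asah1, acid ceramidase (−0.10 and 0.12), and Ppt1, a thioesterase that removes palmitate from proteins (0.03 and −0.07). The glycosidases Gla (0.16 and −0.11), Gusb (0.07 and −0.06), Manba (−0.04 and −0.07) and Naglu (0.17 and 0.09) did not pass with all libraries of a labelled age. Nor did Glb1 at labelled day 7 (−0.04) or the sulfatases Sgsh (0.07 and −0.14) and Arsa (0.18 and 0.21).

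Of the 4 activators and transfer proteins, 2 rose and 1 fell at labelled day 1, against 9.81% and 7.79% of all genes tested. Grn (ENSMUSG00000034708, chromosome 11), whose product progranulin is cut into granulins in lysosomes and binds cathepsin D, was at 132, 154 and 167 CPM in controls and 172, 208 and 222 CPM in DKO labelled day 1. The groups did not overlap, and the log2 fold change was 0.42 ± 0.07, with the smallest adjusted p of the 38 genes (0.00050). Its levels at labelled day 7 were 144, 162 and 177 CPM and 150.4, 167 and 196 CPM, with a log2 fold change of 0.05 ± 0.07 (adjusted p = 0.82) and wide overlap. The change of this effect from labelled day 1 to day 7, −0.37 ± 0.10, did not pass with edgeR (adjusted p = 0.076) and passed with DESeq2 (−0.37, adjusted p = 0.028).

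NPC1 and NPC2 act in series to move cholesterol out of lysosomes, NPC2 as the soluble carrier and NPC1 as the membrane transporter, and their RNA moved in opposite directions at labelled day 1. Npc2 (ENSMUSG00000021242, chromosome 12) was at 73.6, 76.8 and 88.3 CPM in controls and 83.8, 90.0 and 96.2 CPM in DKO, a log2 fold change of 0.19 ± 0.05 (adjusted p = 0.023). A single control, library 13, lay within the DKO range. The call of Npc2 ended with the atrial covariate (adjusted p = 0.070) and without control 14, DKO 33 or DKO 35. Npc1 (ENSMUSG00000024413, chromosome 18) was at 27.0, 30.6 and 36.5 CPM in controls and 23.2, 25.5 and 30.5 CPM in DKO, a log2 fold change of −0.27 ± 0.08 (adjusted p = 0.023) with 6 of 6 DKO libraries below the control mean and some overlap. The fall of Npc1 did not pass with pseudogenes left out of the test (adjusted p = 0.051), with all 24 libraries in the fit or with the atrial covariate. Nor did it pass without control 56, DKO 29 or DKO 35, or without the 4 controls rich in Myl7 (−0.23, adjusted p = 0.12). Npc2 in libraries labelled day 7 was at 100.2, 109.7 and 116 CPM and 111, 115 and 120.2 CPM (0.07 ± 0.05, adjusted p = 0.56).
Npc1 ranged more widely there, from 23.2, 29.2 and 37.3 CPM in controls to 18.5, 27.9 and 36.6 CPM in DKO (−0.13 ± 0.16, adjusted p = 0.78). Psap, the fourth gene of this group, was at 0.12 ± 0.06 and 0.08 ± 0.06 (log2 fold changes at labelled day 1 and day 7) and did not pass, except at labelled day 1 without control 62.

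Of the 7 membrane proteins, Cd63 passed with edgeR at both labelled ages and the other 6 at neither, while DESeq2 called Lamp1 as well at both. Cd63 (ENSMUSG00000025351, chromosome 10), a tetraspanin of late endosomes, lysosomes and exosomes, was at 185, 205 and 215 CPM in controls and 224, 240.4 and 265 CPM in DKO labelled day 1. It was at 169.8, 189.8 and 213 CPM in controls and 218, 249.5 and 263 CPM in DKO labelled day 7. All 6 DKO libraries exceeded all 6 controls at each labelled age, with log2 fold changes of 0.27 ± 0.06 (adjusted p = 0.0049) and 0.35 ± 0.06 (adjusted p = 0.013). The call at labelled day 7 ended without DKO m1124 (0.33, adjusted p = 0.054), without DKO m1128 (0.33, adjusted p = 0.053) and without both (0.30, adjusted p = 0.18), the libraries with over 500 CPM of Myl7. These were also the DKO libraries labelled day 7 with Y-linked transcripts, and the call was kept with a term for such transcripts. Atrial markers, Nppa included, summed to 465 to 764 CPM in controls and 687 to 2738 CPM in DKO labelled day 7. At labelled day 1 this sum was 1.40 times as high in DKO, though only 2 of the 9 markers had a positive log2 fold change. The sum thus does not follow each marker, and the part of atrial RNA in the result for Cd63 was not tested.

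Lamp1 and Lamp2 code for the most abundant glycoproteins of the lysosomal membrane. Lamp1 (ENSMUSG00000031447, chromosome 8) was at 53.4, 65.9 and 94.3 CPM in controls and 74.8, 85.0 and 130.1 CPM in DKO labelled day 1. It was at 78.1, 109 and 147 CPM in controls and 138, 181 and 253 CPM in DKO labelled day 7. The ranges overlapped at both, the spread was wide, and the log2 fold changes of 0.41 ± 0.16 (adjusted p = 0.094) and 0.70 ± 0.16 (adjusted p = 0.062) did not pass with edgeR. DESeq2 called both (0.42 and 0.71). With edgeR it also passed at labelled day 1 without control 62, and at labelled day 7 with all 24 libraries in the fit, with the Y-linked term and without control m1064 or DKO m1046. Without the controls over 50 CPM of Myl7 the value at labelled day 1 was 0.12, and the lowest value of any alternative there was 0.063. Lamp2 (ENSMUSG00000016534, X chromosome) was at 219, 238 and 270.0 CPM in controls and 208, 234 and 242 CPM in DKO labelled day 1 (−0.06 ± 0.06, adjusted p = 0.55), with overlap. Its levels at labelled day 7, 181, 206 and 222 CPM and 215, 227 and 249 CPM, overlapped as well (0.14 ± 0.06, adjusted p = 0.31).
The other membrane genes did not pass: Scarb2, the receptor that carries glucocerebrosidase (−0.10 and −0.17 at labelled day 1 and day 7), Mcoln1, the lysosomal calcium channel (0.10 and 0.00), Cln3 (−0.03 and 0.03) and Laptm4a (−0.04 and 0.06).

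Tfeb (ENSMUSG00000023990, chromosome 17), the transcription factor gene, was at 18.1, 22.2 and 25.3 CPM in controls and 15.2, 18.1 and 19.7 CPM in DKO labelled day 1, a log2 fold change of −0.31 ± 0.09 (adjusted p = 0.029). The ranges overlapped, with the 2 lowest controls, 13 and 25, inside the DKO range. The call ended with pseudogenes left out of the test (adjusted p = 0.058) and without control 22, 56 or 62 or DKO 29 or 35, and it was kept at −0.48 without the controls over 50 CPM of Myl7. Tfeb in libraries labelled day 7 was at 18.1, 20.1 and 24.1 CPM and 16.5, 19.3 and 22.6 CPM (−0.08 ± 0.09, adjusted p = 0.74). Tfe3 (ENSMUSG00000000134, X chromosome), its relative, was at 24.8, 27.6 and 32.7 CPM and 27.7, 30.1 and 31.9 CPM at labelled day 1 (0.08 ± 0.07, adjusted p = 0.49). It was at 24.3, 28.5 and 33.9 CPM and 25.1, 31.0 and 31.8 CPM at labelled day 7 (0.06 ± 0.09, adjusted p = 0.82), with full overlap at both. RNA levels of these factors do not show how much of the protein was in the nucleus.

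**Figure D3:**
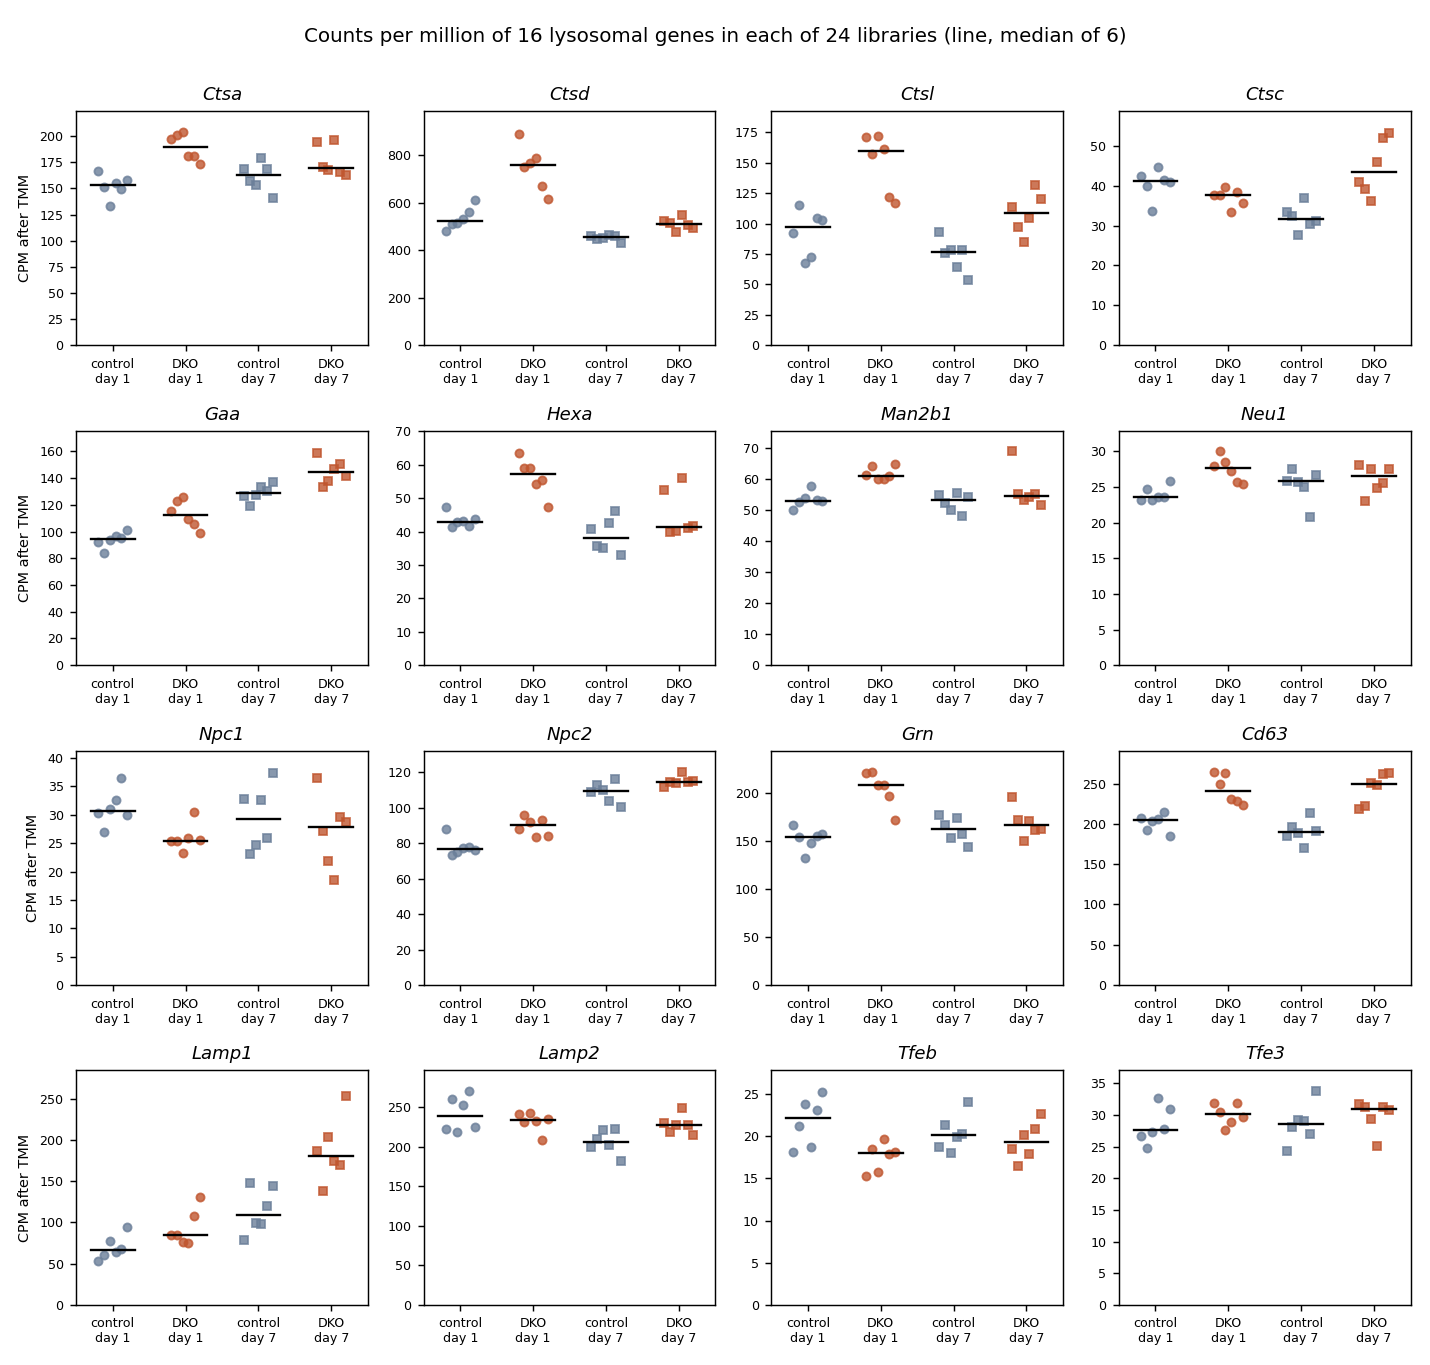
CPM of 16 lysosomal genes in each library: those that passed at either labelled age, with Lamp1, Lamp2 and Tfe3. Each point is a library, black lines are medians of 6, and the groups are control and DKO labelled day 1 and day 7. Ctsd, Grn and Cd63 show DKO libraries above all controls at labelled day 1, and Ctsd and Cd63 do so at labelled day 7 too.

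Across the genes, 6 of the 38 had all DKO libraries above all controls at labelled day 1 (Ctsa, Ctsd, Ctsl, Man2b1, Grn and Cd63) and 0 had them all below, against 6.3% and 3.09% of all genes tested. Labelled day 7 had 2 above (Ctsd and Cd63) and 0 below, against 1.11% and 0.588% of all genes. Of the 10 rises at labelled day 1, all were also called by DESeq2, limma-voom, RLE scaling and the fit of all 24 libraries. With an atrial covariate 6 of them were kept, Gaa, Man2b1, Neu1 and Npc2 were not, and Ctsk and Ctsz were called in addition. Without the controls over 50 CPM of Myl7 8 were kept, all but Gaa and Neu1, and Gusb was called in addition. Macrophage and endothelial markers had 0 of 15 and 0 of 9 genes called at labelled day 1 by edgeR, DESeq2 or limma-voom, and 0 of either at an unadjusted p under 0.05. The endothelial genes Pecam1, Cdh5 and Kdr were at 0.06, 0.08 and −0.01. Atrial markers had 1 of 9 up and 3 down at labelled day 1 with edgeR, 1 up and 4 down with DESeq2, and 1 up and 1 down with limma-voom, with Myl7 at −4.41, Sln at −4.54 and Nppa at 3.37. Cardiomyocyte markers had 0 of 9 up and 3 down with each tool (1 up at an unadjusted p under 0.05), with Myh6, Myh7 and Tnnt2 at −0.05, 0.14 and −0.35. Among all genes tested with edgeR, 9.81% rose and 7.79% fell at labelled day 1. Blood cell markers had 0 of 5 called by any of the 3 tools, and 0 at an unadjusted p under 0.05, with the alpha globin genes Hba-a1 and Hba-a2 at 0.23 and 0.23 and Hbb-bt, a beta globin gene, at 0.19.

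Other lysosomal genes, 92 tested in 6 lists, had 14 rises and 5 falls at labelled day 1, or 15.2% and 5.43%, against 9.81% and 7.79% of all genes. At labelled day 7 they had 1 rise and 0 falls with edgeR, where 0.686% and 0.334% of all genes were called. Among 23 further hydrolases and activators 4 rose and 2 fell. Galc, galactosylceramidase, rose by 0.41 ± 0.08, while Cpq, a carboxypeptidase, fell by 0.35 ± 0.05 and the asparaginyl protease gene Lgmn by 0.24 ± 0.05. Of 19 further membrane proteins, 1 rose and 0 fell with edgeR (3 and 0 with DESeq2, 1 and 0 with limma-voom, and 4 and 2 at an unadjusted p under 0.05). It was Ostm1, a subunit of the lysosomal chloride transporter, by 0.27 ± 0.07. The vacuolar proton pump, which acidifies the lysosome, had 5 of 17 subunit genes up and 0 down (7 and 0 with DESeq2, 4 and 0 with limma-voom, and 8 and 0 at an unadjusted p under 0.05), with Atp6v1h at 0.34 ± 0.08, Atp6v0d1 at 0.17 ± 0.05, Atp6v1f at 0.17 ± 0.05 and Atp6v1b2 at 0.15 ± 0.05. None of these hydrolases, membrane proteins or pump subunits passed at labelled day 7 with edgeR or limma-voom. DESeq2 called 1 fall among the hydrolases and 1 rise among the pump subunits, and at an unadjusted p under 0.05 edgeR had 5 higher and 1 lower among the hydrolases, 0 among the membrane proteins, and 4 higher and 0 lower among the pump subunits. Atp6v1h was at 0.12.

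Among genes that control TFEB or sense nutrients at the lysosome, 1 of 18 (5.56%) rose and 2 (11.1%) fell at labelled day 1 with edgeR, close to the 9.81% and 7.79% of all genes. DESeq2 called 3 up and 2 down. Fnip2, a partner of folliculin in the control of mTORC1 at the lysosome, rose from 44.0 to 74.8 CPM (medians), by 0.93 ± 0.13 on the log2 scale (adjusted p = 0.00019). Mitf, a relative of TFEB, fell by 0.35 ± 0.08, and Ppp3cb, a catalytic subunit of calcineurin, the phosphatase that releases TFEB, fell by 0.25 ± 0.07. Of the same genes 0 of 18 passed at labelled day 7 with edgeR, DESeq2 or limma-voom (1 up and 1 down at an unadjusted p under 0.05), with Fnip2 at 0.50 ± 0.17 (adjusted p = 0.22).

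Between the labelled ages, lysosomal genes shifted in both directions, at shares close to those of all genes. In controls 8 of 38 (21.1%) were higher and 10 (26.3%) lower at labelled day 7, against 27.4% and 25.6% of all genes tested (4757 and 4449 genes). In DKO 10 (26.3%) were higher and 11 (28.9%) lower, against 27.3% and 25.3% (4729 and 4390 genes). In both genotypes, 8 genes were higher and 7 were lower. With a term for Y-linked transcripts, 6 were higher and 8 lower in controls, without Ctss, Scarb2, Arsa and Ctsc, and 10 higher and 11 lower in DKO, without Scarb2 and Arsa and with Tfeb and Man2b1 added. Libraries of the 2 labelled ages also differed in depth, naming and Y-linked transcripts, and age cannot be told apart from these.

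Lamp1 changed most with labelled age, by 0.72 ± 0.17 in controls (adjusted p = 0.0012) and 1.01 ± 0.17 in DKO (adjusted p = 3.2e-05). Also higher at labelled day 7 in both genotypes were Mcoln1 (0.56 in controls and 0.47 in DKO), Npc2 (0.48 and 0.36), Gaa (0.46 and 0.36), Glb1 (0.38 and 0.28), Ctss (0.36 and 0.54), Scarb2 (0.35 and 0.29) and Tpp1 (0.20 and 0.27). Lower in both were Ctsf (−0.60 and −0.55), Ctsb (−0.51 and −0.47), Laptm4a (−0.40 and −0.30), Manba (−0.39 and −0.41), Arsa (−0.34 and −0.30), Psap (−0.27 and −0.31) and Ctsd (−0.24 and −0.55). The call of Scarb2 depended on the fit. Its call in DKO ended with DESeq2, limma-voom, RLE scaling, no filter, pseudogenes left out, the DKO libraries alone or the Y-linked term, and without any of 8 single libraries. Its call in controls ended with the Y-linked term or without m1066, and that of Arsa in DKO without DKO 33, m1046 or m1067. Abundant proteases and the saposin precursor were among the genes with less RNA at labelled day 7.

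Ctsc moved in opposite directions, −0.34 ± 0.09 in controls (adjusted p = 0.0019) and 0.27 ± 0.09 in DKO (adjusted p = 0.013), which is the same difference as that between its genotype effects. The call in DKO ended without both m1124 and m1128, and the call in controls ended with the Y-linked term (−0.24, adjusted p = 0.070). In controls Ctsh (−0.33) and Lamp2 (−0.23) were lower and did not pass in DKO (0.01 and −0.02). In DKO Asah1 was higher (0.27) and Ctsl (−0.47), Hexa (−0.32), Grn (−0.28) and Gusb (−0.23) were lower, without passing in controls (0.04, −0.32, −0.16, 0.09 and −0.11). Ctsl was nevertheless called lower in controls with DESeq2, with pseudogenes left out, and without control 22, control 25 or m1022. None of these 7 passed edgeR's test of the difference over all 24 libraries, and DESeq2 called Grn lower (adjusted p = 0.028). With single libraries left out, edgeR called Grn without control 13, DKO 79, control m1101 or DKO m1026, and Ctsh without DKO 55. Some alternatives also called genes lower at labelled day 7 that the main fit did not. These were Ctsz in controls (DESeq2, limma-voom, RLE scaling or pseudogenes left out) and Man2b1 in DKO (DESeq2, RLE scaling or pseudogenes left out). Of the 15 macrophage markers, 12 were lower and 1 higher at labelled day 7 in controls, and 8 lower and 2 higher in DKO. Among all genes tested, 25.6% were lower and 27.4% higher in controls, and 25.3% and 27.3% in DKO. Fibroblast markers were lower for 10 of 10 and 9 of 10, endothelial markers for 7 and 6 of 9 (1 higher in each genotype), and blood cell markers for 4 and 5 of 5. Their part in the changes with labelled age was not tested.

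**Figure D4:**
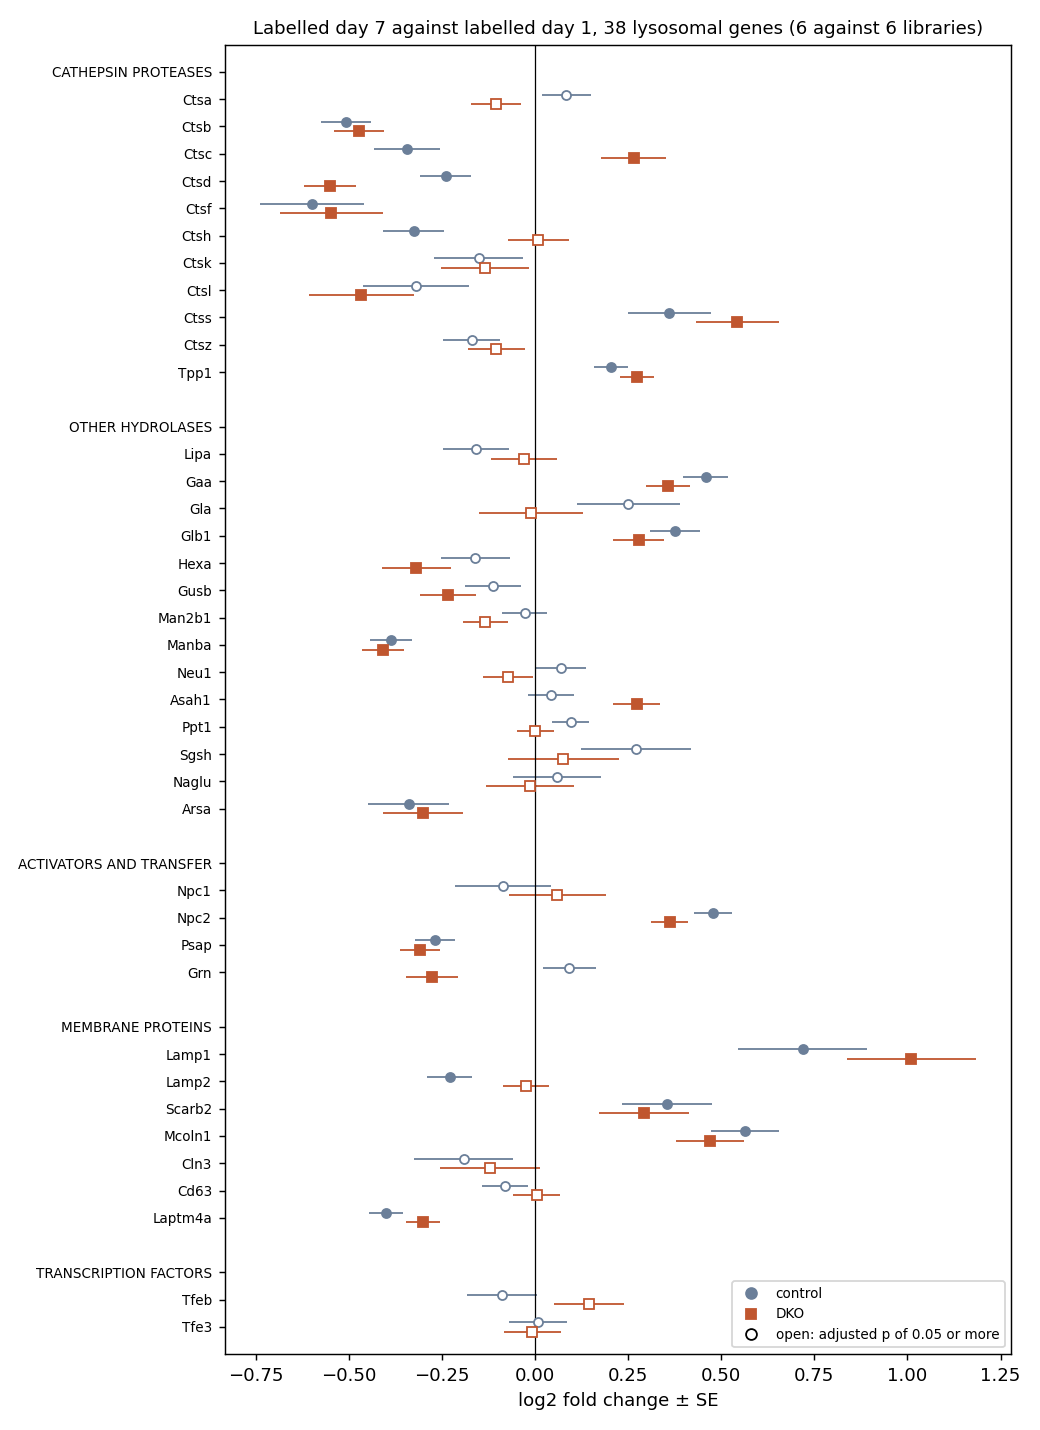
Log2 fold change (labelled day 7 against labelled day 1, ± SE) of the 38 lysosomal genes in control (circles) and DKO (squares), 6 against 6 libraries each. Filled marks had an edgeR adjusted p under 0.05. Lamp1 lies farthest to the right, and Ctsc is filled on opposite sides of zero.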

How the data were processed

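Polyadenylated RNA of left ventricular tissue was sequenced in 24 libraries, made per the labels from 100 ng of total RNA with a low-input kit that does not mark strand. The authors deposited raw counts of reads per gene. The submitters' processing notes name the aligner STAR 2.4.2a, bcl2fastq and GRCm39. How reads were counted, and with which annotation, is not given in the sources used here. Overlaps of genes and promoters were read on GRCm38.

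Genes were filtered by filterByExpr (minimum count 10; 17352 genes), scaled by TMM and tested with the robust quasi-likelihood F-test of edgeR 4.0.16 in R 4.3.3, with Benjamini-Hochberg adjustment over all genes and a threshold of 0.05. Genotypes were compared within the 12 libraries of each labelled age, and ages and their difference over all 24. The SE, which is approximate, is the size of the log2 fold change over the square root of F. DESeq2 1.42.0, limma-voom (limma 3.58.1), RLE scaling, other filters, covariates and each library left out were alternatives. Fits were tested on simulated data. No pair of replicates was alike within sampling noise (lowest chi-square over its degrees of freedom, 5.69, between DKO m1124 and m1128).

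The 38 genes and all lists were chosen with earlier results of these data known. Values by library were given for genes called in either genotype comparison and for Tfeb, Tfe3, Lamp1 and Lamp2. Of other lists, up to 4 called genes with the largest change were named, and of marker lists the first 3. A result that this rule would name is not reported here. Of 97 other lysosomal genes, 93 were in the table by symbol and 92 were tested.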

Additional observations from a re-analysis of the deposited data

Results flagged for a closer look

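The effect of the genotype on Ctsc differed between the labelled ages by 0.61 on the log2 scale in edgeR's test of the difference (adjusted p = 0.014), and by 0.47 without DKO m1124 and m1128 (adjusted p = 0.070).

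In 5 of the 64 groups of 6 libraries screened (16 genes in 4 groups), a single library stood far from the other 5. Chance flags about 5% of groups. Lamp2 was lowest in DKO 69 labelled day 1, at 208 CPM. Npc2 was highest in control 13 labelled day 1, at 88.3 CPM, the only control inside the DKO range. Man2b1 was highest in DKO m1026 labelled day 7, at 69.0 CPM. Neu1 was lowest in control m1091 labelled day 7, at 20.8 CPM, and Tfe3 was lowest in DKO m1092 labelled day 7, at 25.1 CPM.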

How the results depend on the processing

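Counts of lysosomal genes called were within 1.5 times the main count in 196 of 220 recalculations. Of the 16 genes followed by library, 1337 of 1410 recalculated values kept their direction and their side of the threshold. The tally of counts includes counts of 0 that stayed 0, and the tally of values includes values not called that stayed so. Neither measures how stable the calls were. With each of 12 libraries left out, the calls of Ctsc at labelled day 7 and Neu1 at labelled day 1 each ended 8 times. That of Tfeb ended 5 times. Those of Ctsa, Ctsd, Ctsl, Gaa, Hexa, Man2b1, Grn and Cd63 at labelled day 1 ended 0 times. The 10 rises at labelled day 1 became 8 to 12. The 2 falls there became 0 without pseudogenes, and 1 with all 24 libraries in the fit, without the controls over 50 CPM of Myl7 or with an atrial covariate, and 0 to 3 with each library left out. The 2 rises at labelled day 7 became 5 with DESeq2, 4 with all 24 libraries in the fit, 0 without DKO m1124 and m1128, and 0 to 3 with each library left out. In the difference between labelled ages, the rise became 0 without these 2 libraries and 1 to 2 with each library left out, and the 0 falls became 1 with DESeq2 and 0 to 1 with each library left out. Leaving out pseudogenes tests fewer genes (15758), and leaving out the controls leaves 2 of 6. The cause of the other changes was not tested.

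No value of a called gene changed sign. Among values not called, Ctsc at labelled day 1 became 0.028 with the atrial covariate, and Lamp2 became 0.064 without the controls over 50 CPM of Myl7 and 0.035 with the atrial covariate. With libraries left out, Neu1 at labelled day 7 ranged from −0.015 to 0.068, and the difference of Tfe3 between labelled ages from −0.060 to 0.039. For the changes with labelled age, values of single genes were recalculated only where they were called.

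No paired analysis was possible because the groups share no replicate names. The 12 libraries per genotype comparison limit what can be called: Lamp1 had an SE of 0.16 in both genotype comparisons.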

Other observations

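Genes of the inhibitors that hold cathepsins in check had 3 of 6 members up and 0 down at labelled day 1 with edgeR and DESeq2, and 2 up and 0 down with limma-voom (1 down at an unadjusted p under 0.05). With edgeR 9.81% of all genes tested rose and 7.79% fell. The summed level of the 6 genes did not rise with these calls. It was 0.938 times as high in DKO at labelled day 1 and 1.10 times at labelled day 7. Cstb, which codes for the cytosolic inhibitor cystatin B, rose from 29.8 to 37.3 CPM (medians of 6 libraries), a log2 fold change of 0.40 ± 0.09 (edgeR adjusted p = 0.0073). It rose by 0.37 ± 0.08 at labelled day 7 (adjusted p = 0.030), the only gene of the 6 lists of other lysosomal genes called there. Ctla2a, whose product resembles a cathepsin propeptide, rose by 0.38 ± 0.12 and Serpinb6a, a serpin, by 0.18 ± 0.06 at labelled day 1. Of the exonic bases of Ctla2a 97.4% lie inside other annotated genes on the same strand. For Serpinb6a 39.6% lie inside genes on the opposite strand. The secreted inhibitor gene Cst3 was at −0.21 at labelled day 1 and 0.09 at labelled day 7.

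Of 9 genes that route hydrolases to lysosomes through mannose 6-phosphate or sortilin, 0 rose and 1 fell at labelled day 1 with each of the 3 tools, and also at an unadjusted p under 0.05. The fall was 11.1% of the 9, close to the 7.79% of all genes tested that fell, and 9.81% of all genes rose. Sort1, the sorting receptor sortilin, fell by 0.35 ± 0.07 (adjusted p = 0.0025), and the mannose 6-phosphate receptor genes M6pr and Igf2r were at 0.00 and 0.14 (adjusted p = 0.99 and 0.43). At labelled day 7 0 of 9 passed with edgeR, DESeq2 or limma-voom, and 0 at an unadjusted p under 0.05.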
